A study of Mus musculus with 24 samples.

Results

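A set of 9 genes of the Paneth cell antimicrobial programme was followed in the ileum of mice given a control or a high fat diet with or without metformin. The 9 genes, Lyz1, Mmp7, Ang4, Itln1, Defa17, Defa24, Defa30, Mptx2 and Pnliprp2, were chosen by name from 55536 genes in the count table, and all 9 were among the 13505 genes with enough reads to be tested. Paneth cells sit at the base of the small intestinal crypts between the stem cells and release granules of antimicrobial proteins into the crypt lumen. They also supply growth signals to the neighbouring stem cells, and the defensins among their products act on the composition of the gut microbiota. In mice the α-defensins, called cryptdins, are made as inactive precursors that matrilysin (Mmp7) cuts to the active peptide.

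Ileum RNA came from 24 C57BL/6N mice, 3 males and 3 females in each of 4 groups. The CD group received a control diet with 10 kcal% fat, the HFD group a diet with 60 kcal% fat, and the CDmetf and HFDmetf groups the same diets with metformin in the drinking water at 50 mg/kg/day. The diets started at an age of 4 to 5 weeks and ran for 20 weeks before metformin was given for 10 weeks. Mice of the same sex were caged in groups of 3, and 1 mouse of each cage was taken for RNA. The 24 mice therefore came from different cages. Within each group and sex the labels number the mice 1 to 3, so that male 3 of the HFD group is written HFD M3. The labels name no transgene or deletion, and the CD group without metformin served as the control. The tissue was whole ileum, so a lower level of a Paneth cell gene from fewer Paneth cells and one from less RNA per Paneth cell cannot be told apart.

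The libraries held between about 1829690 and 40606400 reads on genes. Of these libraries, 10 (4 of CD and 2 of each other group) had 9261060 reads or more and are called deep, and the other 14, with at most 5186120, are called shallow. Values are given as CPM, the read count relative to the gene reads of the library after edgeR's TMM scaling. A count of 3 reads corresponded to 0.0722 to 1.65 CPM. In CD M3 the 10 most abundant genes held 85.4% of the reads. It is called deep by its total of gene reads only. A count of 3 reads there corresponded to 0.699 CPM, against 0.461 CPM in HFDmetf M1, which is called shallow. HFDmetf F2 had the fewest gene reads, with 36.6% of them in its 10 most abundant genes and 46.9% of all its reads unmapped. The sex-linked transcripts of 2 libraries, those labelled HFD M2 and HFD F2, went against their labels. HFD M3 lacked the ileal genes Fabp6 and Fgf15 almost entirely, as described with its defensins further on. Several results that rest on these libraries are given with and without them. The test of the replicate number and the comparison of group effects between the sexes are not given without HFD M2 and HFD F2.

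The sequences of the defensins come first because they decide how far the defensin counts can be told apart. All 3 defensin members lie in the α-defensin cluster on chromosome 8 (GRCm38, plus strand): Defa30 at chr8:21134642-21135598, Defa17 at chr8:21655780-21656735 and Defa24 at chr8:21734494-21735471. Each coding sequence has 282 bases in the GENCODE transcripts, read here 5′ to 3′ with the bases that differ from Defa24 in capitals. Defa21 is added as a more distant copy, because it and Defa24 part company in one of the libraries.
Defa24: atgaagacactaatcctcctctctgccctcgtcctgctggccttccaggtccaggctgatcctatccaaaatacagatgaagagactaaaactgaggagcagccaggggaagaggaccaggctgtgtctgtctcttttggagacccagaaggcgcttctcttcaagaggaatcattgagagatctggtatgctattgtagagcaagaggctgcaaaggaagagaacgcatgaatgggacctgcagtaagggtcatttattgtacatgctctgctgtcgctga
Defa30: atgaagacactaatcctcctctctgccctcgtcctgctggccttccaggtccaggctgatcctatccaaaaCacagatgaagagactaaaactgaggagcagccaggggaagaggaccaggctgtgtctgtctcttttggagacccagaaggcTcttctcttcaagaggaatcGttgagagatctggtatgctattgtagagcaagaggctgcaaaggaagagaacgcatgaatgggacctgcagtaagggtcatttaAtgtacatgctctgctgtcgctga
Defa17: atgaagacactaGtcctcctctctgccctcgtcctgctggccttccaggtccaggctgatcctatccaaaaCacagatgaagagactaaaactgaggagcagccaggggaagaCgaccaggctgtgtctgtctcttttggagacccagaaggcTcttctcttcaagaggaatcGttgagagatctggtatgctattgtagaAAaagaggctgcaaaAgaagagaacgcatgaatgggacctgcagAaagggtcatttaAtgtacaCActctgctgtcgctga
Defa21: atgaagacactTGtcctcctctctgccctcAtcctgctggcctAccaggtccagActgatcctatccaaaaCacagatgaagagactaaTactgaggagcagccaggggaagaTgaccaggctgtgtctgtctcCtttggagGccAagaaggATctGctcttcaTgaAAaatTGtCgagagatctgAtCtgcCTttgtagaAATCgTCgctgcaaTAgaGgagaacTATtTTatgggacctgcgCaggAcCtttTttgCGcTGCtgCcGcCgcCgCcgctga
Defa30 differed from Defa24 at 4 bases (98.6% identity) and Defa17 at 12 bases (95.7% identity). Defa17 and Defa30 differed from each other at 8 bases. The coding sequence of Defa17 was identical to that of Defa3, which is not a member. Defa21 had 80.7% identity to Defa24 over the alignment, but differed at only 2 bases from its neighbour Defa22.

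How much of a transcript can yield a read of its own was counted in windows of 100 bases, the read length in the name of the sequencing set. Of the 298 windows of Defa17, 270 (90.6%) also occur exactly in a transcript of Defa3 or Defa30. For Defa30 this held for 1 of 299 windows and for Defa24 for 0 of 320. Reads with more than one place in the genome were not counted, so the Defa17 value is uncertain as a level. The mate of a paired read can place a read that its own window does not, whereas reads trimmed to a shorter length can fit more places. These shares are therefore neither an upper nor a lower bound. Among the other members, Lyz1 shared 2.06% of its windows with Lyz2, Mmp7 2.58% with AV064505 and Mptx2 3.31% with Mptx1, while Ang4, Itln1 and Pnliprp2 shared none.

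Promoter sequences were looked at because several members varied together across the libraries. RefSeq promoter windows (GRCm38.p6) were matched for 7 of the 9 members, in 8 windows of which 2 belong to Mmp7. Each window was read over the 250 bases before the transcription start of its RefSeq entry. The motifs searched on both strands were CTTTGAT, the core bound by TCF factors of the Wnt pathway, and TATAAA, the TATA box. The promoters of Defa30 (chr8:21134400-21134649, plus strand) and Mmp7 (chr9:7691840-7692089, plus strand) are shown with each match in capitals, the TCF core appearing as its reverse complement in Defa30.
Defa30 promoter: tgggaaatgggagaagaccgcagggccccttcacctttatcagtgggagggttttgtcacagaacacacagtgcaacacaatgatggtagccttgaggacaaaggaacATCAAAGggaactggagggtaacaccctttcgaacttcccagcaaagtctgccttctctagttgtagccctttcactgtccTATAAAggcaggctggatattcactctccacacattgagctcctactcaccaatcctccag
Mmp7 promoter: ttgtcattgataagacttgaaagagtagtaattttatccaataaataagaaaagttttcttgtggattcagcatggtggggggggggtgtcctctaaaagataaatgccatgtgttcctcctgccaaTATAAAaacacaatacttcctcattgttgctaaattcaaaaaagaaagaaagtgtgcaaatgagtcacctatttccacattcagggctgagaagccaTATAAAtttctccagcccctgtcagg
CTTTGAT was found in 2 of the 8 member windows, that of Defa30 and the second window of Mmp7, and in 3.21% of all 32851 promoter windows. TATAAA was found in 2 of the 8, those shown here, and in 12.4% of all windows. A match describes the letters only, and binding was not measured. The second Mmp7 window (chr9:7692091-7692340) lies downstream of the gene start used here, and the Mmp7 promoter shown holds no CTTTGAT.

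Between genes, levels were compared only per kilobase of transcript. Lyz1, the lysozyme that cuts bacterial peptidoglycan, had the highest level with a median of 4241 CPM per kb over the 24 libraries. Below it came Defa24 with 2464, Defa30 with 1315, the lectin Itln1 with 1139.99 and the ribonuclease Ang4 with 584 CPM per kb. Mptx2 (152), Mmp7 (84.1), Pnliprp2 (66.1) and Defa17 (44.5 CPM per kb) formed the lower end of the range. Neighbours in this order kept it in 23 or 24 of the 24 libraries for Lyz1 over Defa24, Defa24 over Defa30, Itln1 over Ang4 and Ang4 over Mptx2. The order was less stable for Defa30 over Itln1 (19 libraries), Mptx2 over Mmp7 (18), Mmp7 over Pnliprp2 (16) and Pnliprp2 over Defa17 (19), pairs whose levels were not separated beyond their spread.

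The first question was whether diet or metformin moved the members. None of the 9 passed an FDR of 0.05 in any of the 5 comparisons, which were the high fat against the control diet without metformin (HFD vs. CD) and with it (HFDmetf vs. CDmetf), metformin against none on the control diet (CDmetf vs. CD) and on the high fat diet (HFDmetf vs. HFD), and the diet by metformin interaction (edgeR quasi-likelihood test with Benjamini-Hochberg adjustment over 13505 genes). The background was the same, with 0% of all genes tested called in each of these 5 comparisons. DESeq2 and limma-voom also called 0 of the 9 members. At an unadjusted p under 0.05, 1 member was lower in HFDmetf vs. CDmetf and 1 in HFDmetf vs. HFD, in both cases Mptx2, against 3.85% and 3.78% of all genes in that direction (7.55% and 6.87% in either direction). In HFD vs. CD, CDmetf vs. CD and the interaction the number was 0, against 4.75%, 5% and 5.76% of all genes in either direction. Every member had overlapping ranges in all 4 group comparisons. Ranges without overlap were found for 0.074% of all genes in HFD vs. CD, 0.17% in HFDmetf vs. CDmetf, 0.0444% in HFDmetf vs. HFD and 0.163% in CDmetf vs. CD.

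**Figure D1:**
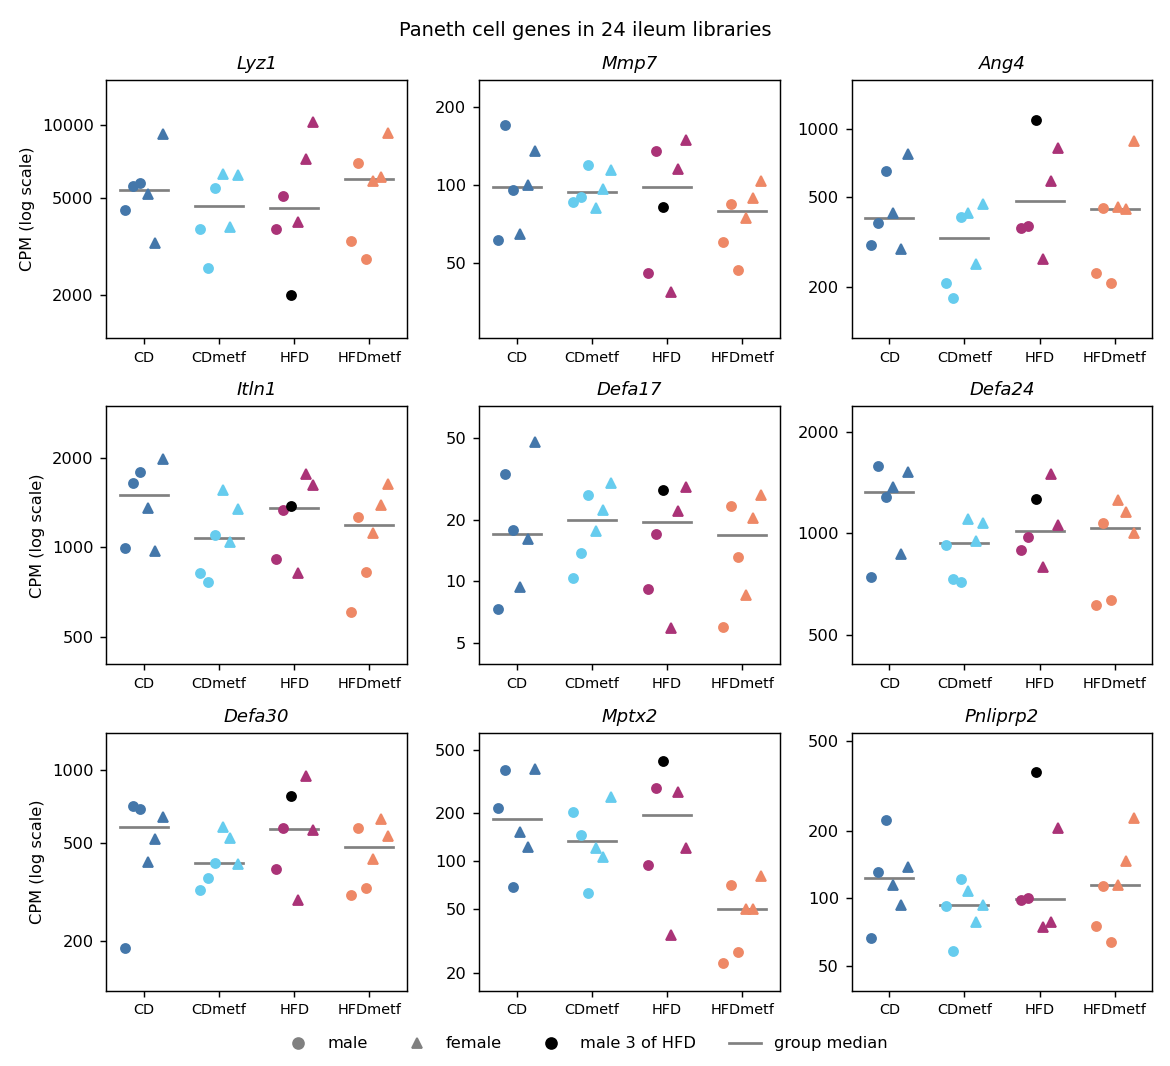
CPM of each of the 9 genes (log scale) in the 24 libraries by group, with circles for males, triangles for females, a grey line at the group median and HFD M3 in black. The groups overlap for every gene, and the 6 HFDmetf libraries lie low for Mptx2, between 23.1 and 80.4 CPM.

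Lyz1 on chromosome 10 (117287797 to 117292868, minus strand) ranged from 3255 to 9257 CPM in CD with a median of 5407. In CDmetf it ranged from 2577 to 6273 (median 4658), in HFD from 1987 to 10301 (median 4557) and in HFDmetf from 2806 to 9334 CPM (median 6020). The 4 groups overlapped widely, and the HFD group held both the lowest and the highest library. The log2 fold changes were -0.12 (SE 0.332) in HFD vs. CD, 0.28 (SE 0.332) in HFDmetf vs. CDmetf, 0.12 (SE 0.329) in HFDmetf vs. HFD and -0.27 (SE 0.330) in CDmetf vs. CD, none larger than its standard error.

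Ang4, an angiogenin with bactericidal activity on chromosome 14 (51763878 to 51773590, minus strand), ranged from 293 to 776 CPM in CD (median 404). It ranged from 178 to 462 in CDmetf (median 330), from 265 to 1097 in HFD (median 479) and from 209 to 884 CPM in HFDmetf (median 443). The CDmetf libraries were the lowest group, and each was below the CD library of the same sex and number in 6 of 6 pairs. The log2 fold change in CDmetf vs. CD was -0.54 (95% interval -1.10 to 0.03, FDR 0.963, edgeR), and in HFDmetf vs. CDmetf it was 0.47 (interval -0.09 to 1.04). HFD M3 held the highest Ang4 value of all libraries. Without it, the log2 fold change in HFD vs. CD was 0.06 instead of 0.27.

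Itln1, an intelectin that binds sugars on microbial surfaces, lies on chromosome 1 (171518122 to 171535294, minus strand). Its ranges were 975 to 1987 CPM in CD, 762 to 1553 in CDmetf, 820.002 to 1760.17 in HFD and 606 to 1626 in HFDmetf. With a coefficient of variation of 29.9% over the 24 libraries it varied less than Lyz1 (40.6%) or Ang4 (51.99%), and its groups overlapped throughout. Its largest log2 fold change was -0.39 (SE 0.219) in CDmetf vs. CD.

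The defensins and their processing enzyme were examined next. Defa24 ranged from 739 to 1586 CPM in CD with a median of 1327, from 717 to 1099.63 in CDmetf (935), from 795 to 1497 in HFD (1017) and from 613 to 1253 in HFDmetf (1038). The medians of the 3 other groups lay below that of CD, but their ranges overlapped it. Its log2 fold change in CDmetf vs. CD was -0.43 (95% interval -0.87 to 0.02, FDR 0.963, edgeR), lower in 4 of 6 pairs. Defa30 had log2 fold changes of 0.17 (SE 0.237) in HFD vs. CD and -0.32 (SE 0.238) in HFDmetf vs. HFD, over a range of 187 to 944 CPM. Defa17 ranged from 5.90 to 47.7 CPM, and its fold changes lay between -0.38 and 0.00 on the log2 scale. Mmp7, on chromosome 9 (7692090 to 7699585, plus strand), ranged from 47.1 to 104 CPM in HFDmetf and from 81.9 to 120.008 in CDmetf. It was lower in HFDmetf than in CDmetf in 6 of 6 pairs, with a log2 fold change of -0.36 (95% interval -0.83 to 0.11, FDR 0.709, edgeR).

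Pnliprp2, a lipase related to pancreatic lipase on chromosome 19 (58759719 to 58777534, plus strand), ranged from 66.2 to 222 CPM in CD and from 58.0 to 122 in CDmetf. In HFD it ranged from 74.8 to 364 and in HFDmetf from 63.9 to 228 CPM. The top of the HFD range was a single library, HFD M3. The log2 fold change in HFD vs. CD was 0.15 (SE 0.297), and without HFD M3 it was -0.16, so its direction rested on that library. Of the 14 pancreatic acinar genes looked at for carried-over pancreas, 1 had enough reads to be tested. Their summed level was 55.0 CPM in CD M1, 49.9 in CD F1, 40.9 in HFDmetf F1 and 37.5 in HFDmetf M2, and 3.84 to 9.25 in the other 20 libraries. Pnliprp2 stood at 66.2, 115, 115 and 113 CPM in these 4, and at 364 CPM in HFD M3, where the summed level was 9.25. The part of carried-over pancreas in the Pnliprp2 values was not tested.

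**Figure D2:**
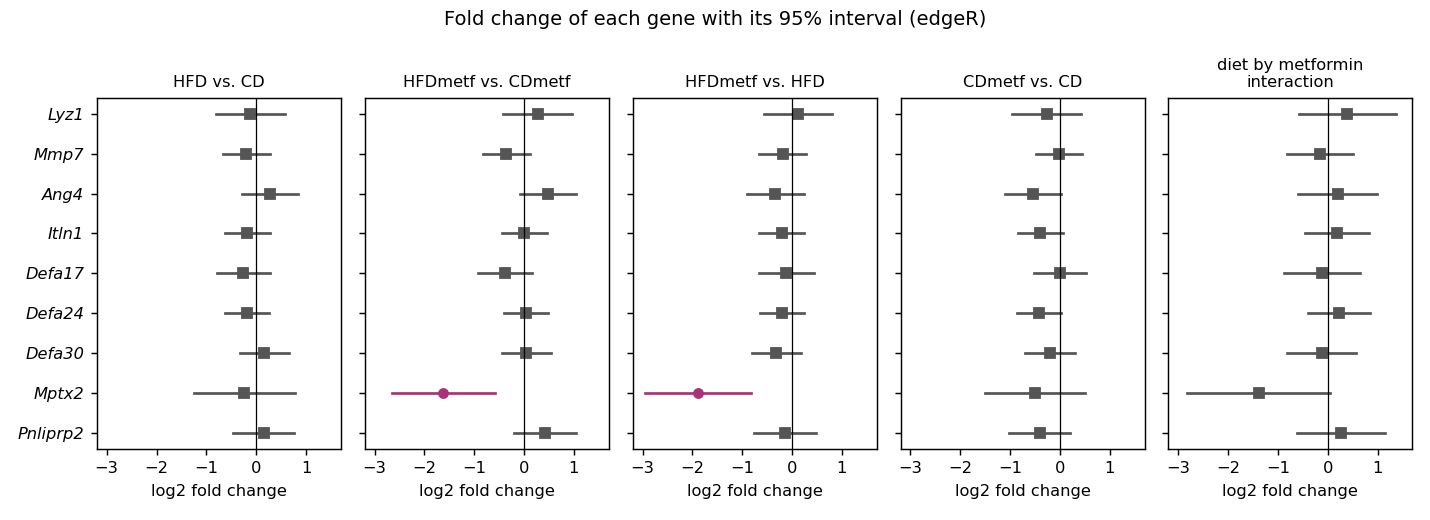
Log2 fold change of each gene (squares) with its 95% interval in the 4 group comparisons and the diet by metformin interaction, with a circle where the unadjusted p was under 0.05. Both circles are Mptx2, at -1.63 in HFDmetf vs. CDmetf and -1.89 in HFDmetf vs. HFD, and every other interval contains 0.

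Mptx2, mucosal pentraxin 2 on chromosome 1 (173274382 to 173277777, minus strand), belongs to the pentraxin family of soluble pattern recognition proteins. It ranged from 68.9 to 377 CPM in CD with a median of 184, and from 63.4 to 255 in CDmetf with a median of 133. In HFD it ranged from 34.6 to 427 (median 196) and in HFDmetf from 23.1 to 80.4 CPM (median 50.1). All 6 HFDmetf libraries lay below the median of every other group, while HFD F1 with 34.6 CPM and the lowest CD and CDmetf libraries lay inside the HFDmetf range. The log2 fold change was -1.63 in HFDmetf vs. CDmetf (SE 0.498, 95% interval -2.66 to -0.59), lower in 6 of 6 pairs, and -1.89 in HFDmetf vs. HFD (SE 0.512, 95% interval -2.95 to -0.83), lower in 5 of 6 pairs. The unadjusted p was 0.00366 and 0.00133, and neither passed the adjustment, with FDR 0.561 and 0.620 (edgeR quasi-likelihood test with Benjamini-Hochberg adjustment). Both comparisons share the HFDmetf libraries. With DESeq2 the FDR was 0.0900 and 0.184, and with limma-voom 0.466 and 0.533, and these lay within 0.0900 to 1.00 and 0.184 to 0.993 over all the alternatives. Without metformin the diets gave -0.24 (SE 0.489) in HFD vs. CD, and on the control diet metformin gave -0.50 (SE 0.481). The interaction, which tests the difference between the diet effects with and without metformin, was -1.39 (SE 0.691, 95% interval -2.82 to 0.05, FDR 0.815, edgeR).

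The Mptx2 values were also taken apart by library. Leaving out single libraries gave log2 fold changes between -2.19 and -1.50 in HFDmetf vs. HFD and between -1.81 and -1.36 in HFDmetf vs. CDmetf. Without HFD M3 and CD M3 they were -1.53 and -1.62, and the interaction was -0.85. Over all the alternatives, among them the run without HFD M2 and HFD F2, they lay between -2.02 and -1.50 and between -1.68 and -1.52. In the 14 shallow libraries alone the log2 fold change in HFDmetf vs. HFD was -2.65 (SE 0.484, FDR 0.394, edgeR), whereas in the 10 deep libraries it was -0.28 (SE 0.852) with 2 libraries in each of these groups. In HFDmetf vs. CDmetf it was -1.76 (SE 0.471) in the shallow and -1.31 (SE 0.864) in the deep libraries. In HFD and HFDmetf the deep libraries were F1 and F3 of each group, all labelled female. The shallow ones were M1, M2, M3 and F2, so depth, sex and number cannot be told apart in full here. Mptx2 stood at 94.7, 290, 427 and 272 CPM in the shallow HFD M1, HFD M2, HFD M3 and HFD F2. Of these, HFD M2, HFD M3 and HFD F2 are among the libraries singled out above. The difference between deep and shallow libraries was not tested.

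Markers of other cells were counted in the same comparisons. All 8 B cell markers had an unadjusted p under 0.05 and lower levels in HFDmetf vs. CDmetf (median log2 fold change -2.38) and in HFDmetf vs. HFD (median -2.07), none with an FDR under 0.05. Their summed level was 7.67 to 21.3 CPM in HFDmetf, 6.49 to 57.6 in CD, 9.37 to 332 in CDmetf and 11.99 to 264 in HFD. In HFD vs. CD and CDmetf vs. CD the B cell markers were higher in 8 of 8 cases each, with medians of 1.78 and 2.04, while Mptx2 was at -0.24 and -0.50. The 10 pan-epithelial genes had a summed level of 5883 to 10589 CPM in HFDmetf against 8224 to 11098 in CDmetf and 8479 to 11217 in HFD. With their mean as a covariate, Mptx2 stood at -1.58 (FDR 1.00) in HFDmetf vs. CDmetf and -1.87 (FDR 0.811) in HFDmetf vs. HFD. Among the macrophage markers, 7 of 7 were higher in HFDmetf vs. HFD (median 0.47, 3 at an unadjusted p under 0.05) and 6 of 7 in HFDmetf vs. CDmetf (median 0.41, 4 at that p). The 3 T cell markers tested were lower in both, with medians of -0.80 (1 at that p) and -1.24 (2 at that p). In HFDmetf vs. HFD all 10 enterocyte markers were lower (median -0.74, 0 at that p), and all 7 smooth muscle markers tested (median 0.41, 0 at that p) and all 6 crypt stem markers (median 0.29, 1 at that p) were higher. In HFDmetf vs. CDmetf the enterocyte markers were 5 higher and 5 lower (median 0.19), the smooth muscle markers 6 of 7 higher (median 0.04) and the crypt stem markers 4 of 6 lower (median -0.01). Goblet markers were lower in 7 of 7 cases in HFDmetf vs. CDmetf (median -0.17) and in 6 of 7 in HFDmetf vs. HFD (median -0.06). The 4 tuft markers were all higher in HFDmetf vs. CDmetf (median 0.30) and all lower in HFDmetf vs. HFD (median -0.27). Of the 5 ileal enterocyte markers, 4 were lower in HFDmetf vs. CDmetf (median -0.50, 1 at that p). In HFDmetf vs. HFD 3 of them were higher (median 0.03). None of these markers had an FDR under 0.05 (edgeR), and the part of these cell types in the Mptx2 values was not tested.

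As a list, the members leaned to lower values in the comparisons with metformin, without a call. In CDmetf vs. CD 8 of 9 were lower with a median log2 fold change of -0.39, against -0.02 over all genes tested. In HFDmetf vs. HFD 8 of 9 were lower (median -0.19, all genes -0.01), and in HFD vs. CD 6 of 9 (median -0.18, all genes 0.01). In HFDmetf vs. CDmetf 6 of 9 were higher, with a median of 0.04 against 0.03 over all genes. These comparisons share control libraries, and the members varied together, so the counts are not independent of each other.

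All rows with a Defa symbol were then counted, because reads that fit several copies are lost from each of them. Some genes with other symbols share windows with Defa copies and are left out here. They include Gm15293 (with Defa5 and Defa34), Gm14851 (with Defa29) and Gm15292 (with Defa26). The table holds 39 rows whose symbol starts with Defa, 22 protein-coding genes and 17 pseudogenes, of which 5 had no read in any library and 16 (14 protein-coding) could be tested. In HFD vs. CD 14 of the 16 were lower with a median log2 fold change of -0.41, and 2 of them had an unadjusted p under 0.05, against 1.93% of all genes lower at that p. These 2 were Defa20 (-0.93, SE 0.391, FDR 0.995, edgeR) and Defa34 (-0.72, SE 0.308, FDR 0.995, edgeR). Both share most of their windows with other copies, Defa20 99.7% and Defa34 75%. Without HFD M3 and CD M3, 15 of 16 rows were lower with a median of -0.27, and 1 had an unadjusted p under 0.05. Without HFD M2 and HFD F2, where 18 rows were tested, 16 of 18 were lower with a median of -0.80, and 4 had an unadjusted p under 0.05. The shares of all genes at that p were not counted with either pair of libraries left out. In CDmetf vs. CD 13 of 16 rows were lower (median -0.22), in HFDmetf vs. CDmetf 12 (median -0.28) and in HFDmetf vs. HFD 9 (median -0.07), with 0 at an unadjusted p under 0.05 in these 3. Leaving out HFD M2 and HFD F2 turned the direction in HFDmetf vs. HFD, where 13 of 18 rows were then higher with a median of 0.29, again with 0 at that p.

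The sum of all Defa rows does not depend on how uniquely placed reads are split among these rows. Reads that fit several copies are missing from the sum as well, so it is not a full level of the family. The sum ranged from 2148 to 4648 CPM in CD (median 3943), from 2035 to 3332 in CDmetf (3094), from 2209 to 4831 in HFD (2868) and from 1749 to 3545 in HFDmetf (2889). The CD median was the highest of the 4, but its lowest library, CD M1, lay inside the CDmetf and HFDmetf ranges and below that of HFD. The log2 fold change of the sum was -0.28 (SE 0.238, FDR 0.999, edgeR) in HFD vs. CD, -0.30 (SE 0.238, FDR 0.977, edgeR) in CDmetf vs. CD, and -0.10 and -0.13 in HFDmetf vs. CDmetf and HFDmetf vs. HFD. Thus neither the copies nor their sum passed the test in any group comparison.

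HFD M3 stood apart in which defensin copies it carried. Of the 16 Defa rows tested, 8 were below the range of the other 23 libraries, 7 within it and 1 (the pseudogene Defa-ps6) above it. One of the 8, Defa32, had 0 reads in HFD M3, and its level in the others reached down to 0.302 CPM, so at this depth it cannot be placed. Across all 13505 genes tested, HFD M3 was the lowest library for 9.60% and the highest for 7.68%. HFDmetf F2 (14.2% and 8.17%) and HFD F2 (10% and 11.9%) exceeded it on both shares. Defa21 was at 21.5 CPM, where the other libraries ranged from 289 to 987. Defa22 was at 26.9 CPM against 328 to 902, and Defa29 at 7.15 against 66.9 to 300.451. Defa2, Defa20 and Defa35 had 0 reads as well, which at this depth allows up to 1.26 CPM. By contrast Defa24 (1263 CPM), Defa30 (784) and Defa17 (27.8) were within the range of the others. The 3 member defensins therefore held 93.7% of its Defa reads, against 38.4% to 60.7% (median 49.9%) in the other 23 libraries.

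The split followed the sequences shown above in most rows. Protein-coding copies within the range (Defa17, Defa24, Defa30, Defa3 and Defa26) had a coding identity of at least 89.4% to Defa24, except for Defa34 with 83.7%. Copies counted below the range had an identity of at most 84% to Defa24, down to 68.5% for Defa29.

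Other genes differed in the same library. Lyz1 was at 1987 CPM, below the 2577 of the next library, whereas Ang4 (1097 CPM), Mptx2 (427) and Pnliprp2 (364) were above all others, as were the Paneth genes Mptx1 (21.9) and Clps (229). Fabp6, the bile acid binding protein of ileal enterocytes, was at 0.841 CPM against 33.9 to 2618 in the others. Fgf15, the ileal hormone that acts on bile acid synthesis, had 0 reads where the others had 4.37 to 171 CPM, and the bile acid transporter Slc10a2 was at 5.05 CPM against 14.4 to 1348. Fabp1 (1709 CPM) and Apoa4 (6723 CPM), which are strong in the upper small intestine, were above all other libraries. The other 2 of the 5 ileal markers, the bile acid exporter subunits Slc51a and Slc51b, were at 135 CPM against 222 to 996 and at 20.2 CPM against 10.7 to 97.0. Summed, the 5 markers stood at 162 CPM in HFD M3, and the lowest of the other libraries was CD M1 with 306. Fabp6, Fgf15 and Slc10a2 were thus at or near 0 in this library while Slc51a and Slc51b were not, and the position along the gut from which its tissue came was not tested.

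**Figure D3:**
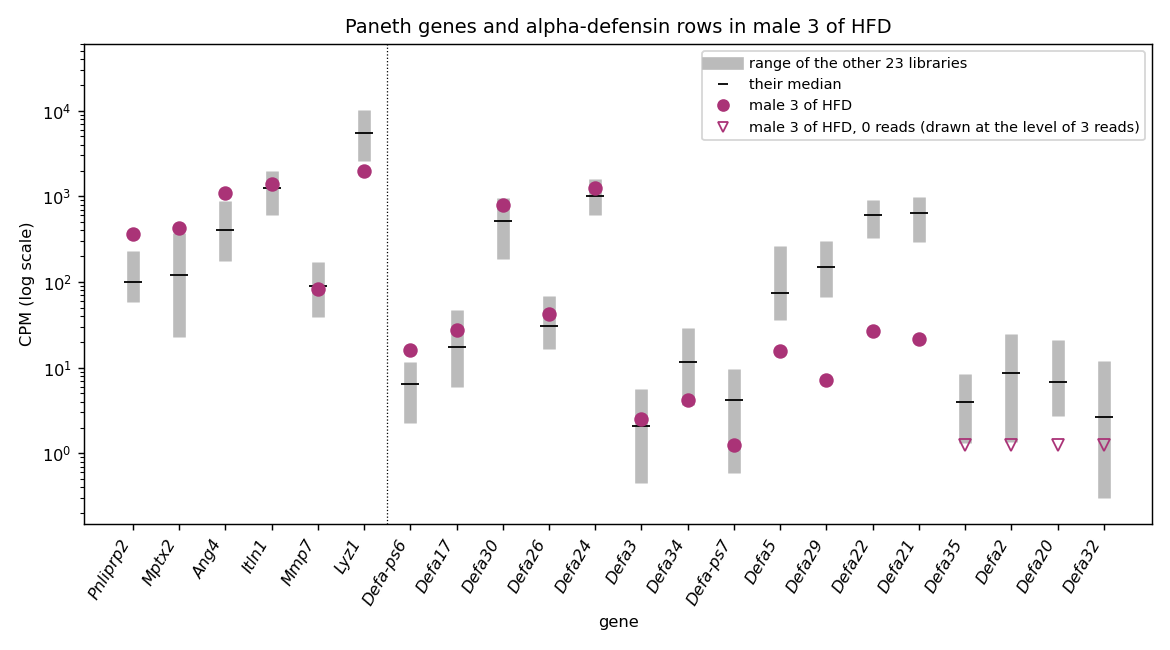
CPM (log scale) in male 3 of HFD (circles, open triangles for 0 reads drawn at the level of 3 reads) of the 6 members that are not defensins and the 16 Defa rows tested, over the range (grey) and median (black) of the other 23 libraries. Defa21, Defa22 and Defa29 lie far below the range while Defa24, Defa30 and Defa17 lie within it.

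Males had lower values than females for most members. In the model with group and replicate number, 8 of 9 members were lower in males (median log2 fold change -0.28), where 50.2% of all genes were lower. Of them 2, Lyz1 and Itln1, had an unadjusted p under 0.05, against 3.27% of all genes in that direction, and none an FDR under 0.05, against 0.0074% of all genes (DESeq2 and limma-voom also called 0 members). Lyz1 ranged from 1987 to 6994 CPM in the 12 males (median 4116) and from 3255 to 10301 in the 12 females (median 6209). The 2 ranges overlapped widely, with a log2 fold change of -0.54 (SE 0.237, FDR 0.681, edgeR). Itln1 ranged from 606 to 1786 CPM in males and from 820.002 to 1987 in females, with a log2 fold change of -0.35 (SE 0.155, FDR 0.681, edgeR). Of the Defa rows, 16 of 16 were lower in males and 5 had an unadjusted p under 0.05. They were led by Defa34 (-0.90, SE 0.219, FDR 0.324, edgeR) and Defa5 (-0.78, SE 0.253, FDR 0.607, edgeR), with Defa3 at -0.62 (SE 0.280) and Defa29 at -0.60 (SE 0.284). Defa34, Defa5 and Defa3 share 75%, 88.1% and 86.8% of their windows with other copies, and Defa29 shares 11%. These rows are therefore not fully apart from each other.

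Both libraries whose sex-linked transcripts went against their labels entered this comparison. Without HFD M2 and HFD F2, 8 of 9 members were still lower in males and 1, Lyz1, had an unadjusted p under 0.05, with 18 of 18 Defa rows then tested lower. Without HFD M3 and CD M3, 8 of 9 members were lower and 4 (Ang4, Defa24, Defa30 and Itln1) had an unadjusted p under 0.05, while Lyz1 was no longer among them. The shares of all genes at that p were not counted with either pair of libraries left out. The group comparisons were also set against each other between the sexes. Here 0 members passed an FDR of 0.05, and 1, Pnliprp2 in HFDmetf vs. HFD, had an unadjusted p under 0.05, against 3.1% of all genes. In HFD vs. CD, HFDmetf vs. CDmetf and CDmetf vs. CD the number was 0, against 2.04%, 5.33% and 5.19% of all genes. The male minus female difference of Pnliprp2 was -1.39 (SE 0.550, FDR 0.9999, edgeR), and HFD M3 is one of the 3 HFD males. HFD M2 and HFD F2 entered these comparisons between the sexes under their labels, although their sex-linked transcripts went against them.

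The members with an FDR under 0.05 were found along the replicate number of the labels. In all, 4 of the 9 members, Defa17, Ang4, Mmp7 and Pnliprp2, differed between numbers 1, 2 and 3 at an FDR under 0.05, against 16.8% of all genes tested (edgeR quasi-likelihood test of both number coefficients, Benjamini-Hochberg adjustment). All 9 members had their lowest fitted level in number 1, where 31.2% of all genes did. Each number stands for 8 libraries, 1 of each sex from each group. The labels do not say what the number stands for. The study describes blocks of animals shifted in time and a sequencing block among its covariates, and the number may or may not mark either.

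Defa17 ranged from 5.90 to 17.6 CPM in number 1 (median 8.87), from 13.8 to 33.4 in number 2 (median 21.2) and from 13.1 to 47.7 in number 3 (median 27.1). Only the upper end of number 1 reached into the other numbers. The log2 differences were 1.27 (SE 0.233) for number 2 over 1 and 1.60 (SE 0.227) for number 3 over 1, with FDR 6.89e-04 (edgeR). Most Defa17 windows are shared with other copies, so this value is uncertain. Mmp7 ranged from 38.7 to 86.0 CPM in number 1, from 84.7 to 170.311 in number 2 and from 47.1 to 150.168 in number 3, with log2 differences over number 1 of 0.78 (SE 0.199) and 0.71 (SE 0.197) and FDR 0.0190 (edgeR). Both genes were low in number 1 and similar in numbers 2 and 3.

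Ang4 and Pnliprp2 showed another order, with number 3 high. Ang4 had a median of 335 CPM in number 1, 377 in number 2 and 711 in number 3, with a log2 difference of 0.93 (SE 0.236) for number 3 over 1 and FDR 0.0146 (edgeR). Pnliprp2 had medians of 95.5, 96.9 and 172 CPM, with a log2 difference of 0.88 (SE 0.260) for number 3 over 1 and FDR 0.0310 (edgeR). Within number 3, HFDmetf M3 lay low for both genes, at 209 and 63.9 CPM. Defa24, with the smallest differences (0.21 and 0.13), and Mptx2 and Lyz1 did not pass the test.

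Number and depth overlapped, since number 1 held 4 deep libraries, number 2 held 0 and number 3 held 6. The deep libraries of number 3 include CD M3, which is deep by its total of gene reads only. With a term for deep libraries in the model, Defa17 and Mmp7 were still called and Ang4 and Pnliprp2 were not (FDR 0.0622 and 0.0631, edgeR). Without HFD M3 and CD M3, both of number 3, Defa17, Mmp7 and Defa30 were called. The shares of all genes called in these models were not counted.

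**Figure D4:**
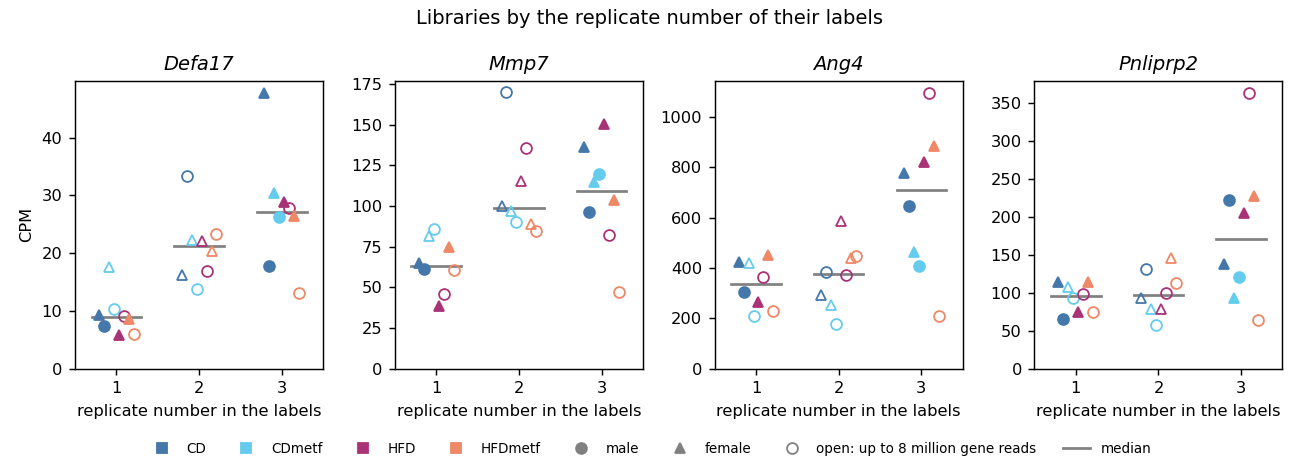
CPM of Defa17, Mmp7, Ang4 and Pnliprp2 in the 8 libraries of each replicate number, coloured by group, with open symbols for the 14 shallow libraries and a line at the median. Defa17 and Mmp7 lie low in number 1, and Ang4 and Pnliprp2 lie high in most libraries of number 3.

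Across the 24 libraries the members varied together. The median Pearson's r of their log2 CPM was 0.56 over the 36 pairs of genes, from 0.10 to 0.86, and 0.62 over the 28 pairs without Mptx2. The highest value was that of Ang4 and Pnliprp2 (0.86, and 0.83 without HFD M3), followed by Itln1 and Defa24 (0.84), Itln1 and Ang4 (0.82) and Mmp7 and Defa17 (0.81). This ranking rested on HFD M3. In the other 23 libraries the highest pair was Lyz1 and Ang4 (0.94, from 0.55 with HFD M3), followed by Ang4 and Itln1 (0.87) and Lyz1 and Itln1 (0.86, from 0.71). Lyz1 and Pnliprp2 stood at 0.76 there, from 0.29, and the median over the 36 pairs was 0.62. Mptx2 went least with the others, with 0.10 to Lyz1 and 0.58 at most, to Mmp7. Without HFD M3 its lowest value was 0.05, to Pnliprp2, and its highest 0.63, again to Mmp7. These values describe libraries that differ in group, sex, number and depth all at once, and carry no test.

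The mean z-score of the 9 genes placed each library along this common axis. It was lowest in HFDmetf M1 (-1.43), HFDmetf M3 (-1.29) and HFD F1 (-1.23), where 0 of 9 members were above their own mean. It was highest in CD F3 (1.30, 9 of 9 above), followed by CD M2 (0.97) and HFD F3 (0.96). Each group had libraries on both sides of 0. The genes outside the Defa rows most similar to this score were Ankmy2 and Tmed6 (r = 0.82 each), Gm15292, Prdx4 and Pdcd4 (0.80 each), Clps (0.79), Eef1b2 and Cd24a (0.78 each), and Shcbp1 and Miga1 (0.76 each), over 24 libraries. Clps encodes colipase, Prdx4 is a peroxiredoxin of the endoplasmic reticulum and Cd24a is a surface protein used to sort Paneth cells. Of the Defa26 windows, 1.1% also occur in Gm15292, so Gm15292 is not fully apart from the Defa rows.

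**Figure D5:**
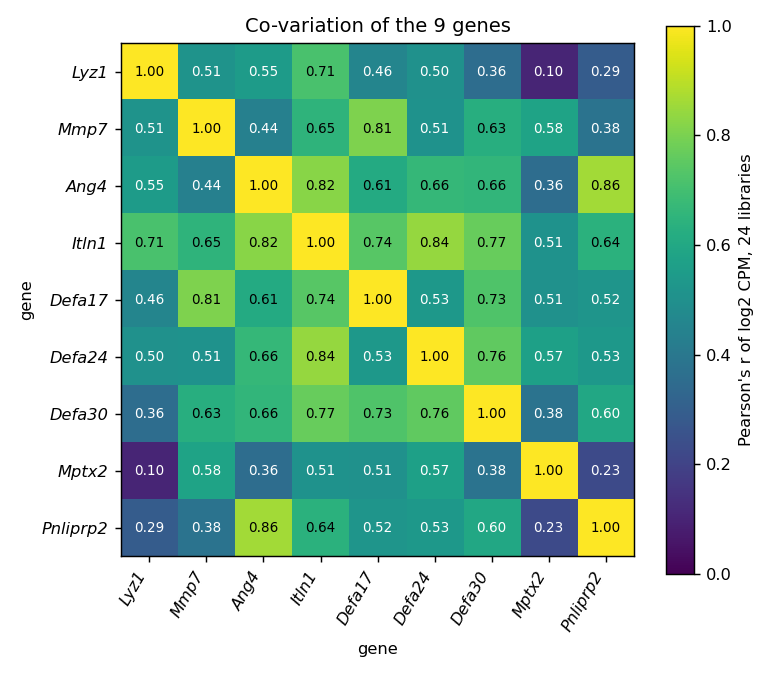
Pearson's r of log2 CPM over 24 libraries for each pair of the 9 genes, coloured from 0 to 1. Ang4 and Pnliprp2 (0.86) and Itln1 with Defa24 and Ang4 stand at the upper end, and the Mptx2 row holds the lowest values, with HFD M3 included, without which Lyz1 and Ang4 are the highest pair (0.94).

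Other genes of the Paneth cell were counted from 3 lists. Of 16 further granule and product genes, 12 could be tested and 0 passed an FDR of 0.05 in any group comparison. In CDmetf vs. CD 11 of the 12 were lower with a median log2 fold change of -0.29, with 0 at an unadjusted p below that level, and in HFD vs. CD 9 were lower (median -0.12). Fgfrl1, an FGF receptor-like protein, was the 1 gene of this list with an unadjusted p under 0.05 in a group comparison, at -0.41 (SE 0.198, FDR 0.995, edgeR) in HFD vs. CD, where 1.93% of all genes were lower at that p.

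Of 19 genes of Paneth cell differentiation and the crypt niche, 18 could be tested, and 0 passed an FDR of 0.05. At an unadjusted p under 0.05 there were 1 in HFD vs. CD, 1 in HFDmetf vs. CDmetf, 2 in HFDmetf vs. HFD, 0 in CDmetf vs. CD and 1 in the interaction, against 4.75%, 7.55%, 6.87%, 5% and 5.76% of all genes. The Notch ligand Dll4 was at -0.38 (SE 0.177) in HFD vs. CD and -0.41 (SE 0.179) in HFDmetf vs. CDmetf. The ephrin receptors Ephb3 and Ephb2, which position Paneth cells at the crypt base, were at 0.49 (SE 0.233) and 0.38 (SE 0.183) in HFDmetf vs. HFD. Spdef, a transcription factor of secretory cells, had an interaction of 0.55 (SE 0.244). The medians of this list stayed between -0.10 and -0.01 in the 4 group comparisons.

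Of 16 genes of secretion, stress and microbial sensing, 15 could be tested and again 0 passed an FDR of 0.05. At an unadjusted p under 0.05 there were 2 in HFD vs. CD, 3 in HFDmetf vs. CDmetf, 2 in HFDmetf vs. HFD, 3 in CDmetf vs. CD and 4 in the interaction, against the same shares of all genes. Ern2, the epithelial sensor of unfolded proteins, was at -0.32 (SE 0.102, FDR 0.995, edgeR) in HFD vs. CD and at 0.35 (SE 0.102, FDR 0.620, edgeR) in HFDmetf vs. HFD, with an interaction of 0.47 (SE 0.144, FDR 0.754, edgeR). Kcnn4, a potassium channel of Paneth cells that takes part in granule secretion, was at 0.53 (SE 0.170) in HFDmetf vs. CDmetf and 0.37 (SE 0.171) in HFDmetf vs. HFD. Its interaction was 0.56 (SE 0.240). Autophagy, on which granule packaging depends, was represented by Atg7, Atg16l1 and Atg5. Atg7 was at 0.35 (SE 0.118) in HFDmetf vs. CDmetf and -0.27 (SE 0.116) in CDmetf vs. CD, with an interaction of 0.46 (SE 0.166). Atg16l1 was at 0.26 (SE 0.112) in HFDmetf vs. CDmetf and Atg5 at 0.34 (SE 0.144) in HFD vs. CD. In CDmetf vs. CD the immunity-related GTPase Irgm1 was at 0.51 (SE 0.175) and the chaperone Hspa5 at 0.39 (SE 0.139), the latter with an interaction of -0.45 (SE 0.196). None of these genes is expressed by Paneth cells alone.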

How the data were processed

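The authors extracted total RNA from ileum, depleted ribosomal RNA, sequenced directional libraries with a set for paired reads of 100 bases, trimmed them with Trimmomatic 0.39 and aligned them to GRCm38 with STAR 2.5.3a. The deposited values are raw read counts per gene, with reads that map to several places left out. The strand setting and the annotation release behind the counts are not given in the sources used here. Transcript lengths, positions and coding sequences were taken from GENCODE transcripts of GRCm38, promoter sequences from RefSeq.

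Genes were filtered with filterByExpr on the 4 groups and scaled by TMM, and edgeR 4.0.16 (R 4.3.3) was used for a quasi-likelihood test with group, sex and replicate number in the model, on 24 libraries with 17 residual degrees of freedom. P-values were adjusted by Benjamini-Hochberg over 13505 genes, with a threshold of 0.05 on the FDR. They measure the spread between these animals. Unadjusted p-values are given as descriptions. Log2 CPM for correlations used a prior count of 1. Intervals cover 95%, and the floor of 3 counts covers counting error only. DESeq2 1.42.0 and limma 3.58.1 (voom) were alternatives, and the edgeR step was tested on simulated data.

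The 9 members were named, and the lists chosen, with earlier results of these data known. All 9 members were named in each comparison, and of each list the genes with an unadjusted p under 0.05, at most 4 per list and comparison by smallest p. For the 3 lists of other Paneth genes these are printed for the group comparisons and the interaction. The genes most similar to the members were the 10 with the highest Pearson's r to their mean z-score.

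The replicate numbers were kept in the model because the study's methods include a sequencing block as a covariate, which the labels do not give. Within a sex, libraries of 2 groups with the same number had a mean correlation of their deviations of 0.17 over 36 pairs of libraries (22 of them over 0.1), against -0.02 over 72 pairs with different numbers (18 over 0.1). The labels do not state that the number marks this block or a block of animals.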

Additional observations from a re-analysis of the deposited data

Results flagged for a closer look

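Among the 6 libraries of a group, the highest or lowest was compared with its nearest neighbour relative to the range of the group (Dixon's ratio at its 95% critical value). Of 40 groups of values tested, 9 genes and the Defa sum in 4 groups, 1 was marked, and chance marks about 1 in 20. It was Ang4 in HFDmetf, where HFDmetf F3 stood at 884 CPM and the other 5 libraries at 209 to 451.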

How the results depend on the processing

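In the 4 group comparisons, the interaction and male vs. female, the number of members with an FDR under 0.05 was 0 in every alternative run, among them RLE size factors, DESeq2, limma-voom, other filters on low counts and the further model and library choices where they applied. Of 604 fold changes of members under these alternatives, 604 kept their direction, however far they moved, or changed it with a shift below the standard error of the main fold change. With single libraries left out this held for 1079 of 1080, and the number of members called was 0 in each case. The exception was Pnliprp2 in HFD vs. CD, at -0.16 without HFD M3. For the replicate number, the count of 4 became 5 with RLE size factors, DESeq2 or at least 10 counts in every library, 4 with limma-voom, 3 without HFD M3 and CD M3 and 2 with a term for deep libraries. The shares of all genes called were not counted under these settings. The depth term, the removal of HFD M3 and CD M3 and a low-count filter on the full design were chosen after seeing the data, as were the other settings for sex and number that leave out libraries.

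The pairing by number was not stated in the labels. Without the replicate block 0 members were called in each of the 5 comparisons, 9 of 9 members were lower in CDmetf vs. CD, and the Mptx2 interaction had an unadjusted p of 0.0477 (edgeR). The Defa sum was then at -0.26 in HFD vs. CD, -0.08 in HFDmetf vs. CDmetf, -0.14 in HFDmetf vs. HFD, -0.32 in CDmetf vs. CD and 0.18 for the interaction.

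Depth differed widely between libraries and followed the replicate number, so differences by number and by depth cannot be told apart in full. The intervals of the group comparisons reach beyond 0.4 on the log2 scale on at least 1 side for each member, so differences of that size are not excluded. The smallest difference that could be called was not computed. Mptx2 at -1.89 in HFDmetf vs. HFD was not called. Counts of near-identical defensin copies leave out reads that fit several of them.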
